A study of Mus musculus with 12 samples.

Results

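The proteasome genes described here were the gene symbols made of Psm, a letter from a to g and a digit, which is how mouse proteasome subunits, activators, inhibitors and assembly chaperones are named. The symbols were matched by name in the authors' gene table, with no use of measured values. This gave 49 of the 23284 genes, and 47 of the 49 were among the 12502 genes with at least 1 FPKM (fragments scaled to transcript length and library depth) in at least 3 of the 12 libraries. Psmb8, Psmb9, Psmb10, Psme1 and Psme2 were set against the other 44. Psmc3ip matches the pattern but is named as a protein that interacts with Psmc3, known as a cofactor of meiotic recombination, and is counted with the 44.

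The study asked how maternal milk rich in palmitic acid, a long-chain saturated fatty acid, affects group 3 innate lymphoid cells (ILC3s) of the small intestine of the nursed mice. RNA was sequenced from ILC3s sorted from the intraepithelial layer (IEL) and the lamina propria (LP) of hairless HR-1 mice aged 18 weeks. The PA milk groups were nursed by mothers given chow with added palmitic acid, and the ND groups by mothers on the normal diet. All mice ate the normal diet once they fed on their own. There were 4 groups of 3 libraries: PA milk IEL, ND IEL, PA milk LP and ND LP. The sort kept lineage-negative cells positive for Thy1.2, CD25 and Nrp1, and the study's text names either CD4 or CD45 as a further marker of the gate. The labels do not say that each library is a separate mouse, nor whether an IEL and an LP library of the same number share one, so p-values measure only the spread between libraries, which may be partly technical.

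Library depth, estimated from the steps between low values, was lowest in PA milk IEL replicate 1 and highest in PA milk IEL replicate 2, at about 8750000 and 14590000 reads. The counts that the authors had scaled per library added up to 9376529 to 11710874, which is not a depth. A pair of libraries stood apart: at least 1 FPKM was reached by 4390 genes in PA milk IEL replicate 2 and by 5637 genes in PA milk LP replicate 2. ND IEL replicate 2 had 7863 such genes, and the other libraries had 8406 to 11378. Some results between the diets are given with and without the PA milk replicates numbered 2. These are fold changes of Psme2, Psmf1 and Psmg1, and how many proteasome genes were higher with PA milk. The counts of genes whose groups did not overlap, the results by role and the medians of marker genes are given only with these replicates. How far these rest on the PA milk replicates numbered 2 was not tested.

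The labelled cell type was checked against 12 ILC3 genes. Id2 had the highest level of them in each library but ND LP replicate 2, where Il22 was at 4339 FPKM. At least 1 FPKM was reached by 11, 2 and 11 of them in PA milk IEL, 11, 5 and 11 in ND IEL, 3, 3 and 8 in PA milk LP, and 7, 12 and 9 in ND LP. Thy1, a marker of the sort, was listed at 0 in PA milk IEL replicate 2, ND IEL replicate 2, PA milk LP replicates 1 and 2 and ND LP replicate 1, and the label is not borne out by this gene there. The 10 epithelial genes, of which Fabp2 had the highest mean over the libraries, summed to 7303, 2982 and 37847 FPKM in PA milk IEL, 17056, 75047 and 20907 in ND IEL, 1340, 1323 and 288.5 in PA milk LP, and 2106, 2344 and 4563 in ND LP. The 7 T cell genes, with Lck the highest by mean, summed to 190, 0.0992 and 73.2 FPKM in PA milk IEL, 256, 19.1 and 530 in ND IEL, 79.6, 0.236 and 267 in PA milk LP, and 153, 237 and 128 in ND LP. Cd3e was at 0 in all PA milk IEL libraries, in ND IEL replicate 2 and in PA milk LP replicate 2. Other T cell genes were present in some of these: Cd8b1 and Lck were at 129 and 38.2 FPKM in PA milk IEL replicate 1. In PA milk IEL replicate 3 they were at 37.0 and 12.1. At least 1 FPKM was reached by 3, 0 and 4 of the 7 in PA milk IEL and 6, 1 and 7 in ND IEL. In the LP these counts were 4, 0 and 6 with PA milk, and 5, 5 and 5 with ND. The 5 B and plasma cell genes in the table, with Igj the highest by mean, summed to between 11.1 FPKM (PA milk LP replicate 1) and 18158 FPKM (PA milk IEL replicate 1), and the 7 genes of macrophages, dendritic cells and neutrophils, with Lyz2 the highest by mean, to between 270.1 (ND IEL replicate 3) and 11197 (ND LP replicate 1). The part of these cells in the results below was not tested.

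The proteasome is the protease that degrades proteins tagged with ubiquitin. Its 20S core is a barrel of alpha rings, which gate the entrance, and beta rings, which carry the proteolytic sites, and 19S caps recognise, unfold and feed in substrates. Interferon gamma induces Psmb8, Psmb9 and Psmb10, which replace the catalytic subunits Psmb5, Psmb6 and Psmb7 in newly built cores to form the immunoproteasome, and the PA28 cap of Psme1 and Psme2, and lymphocytes carry much of this form, which favours peptides for MHC class I.

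Proteasome genes were abundant and seen in most libraries. The median over the tested members of the mean FPKM was 156.6, against 13.1 over all tested genes. At least 1 FPKM in all 12 libraries was found for 38 of the 47 (80.9%), against 18.1% of all tested genes and 82.0% of the 824 tested genes with a mean at or above the members' median. The median within-group SD on the log2 scale was 0.60 for the members and 1.48 for all tested genes, but 0.64 for those 824 genes, so that detection and spread went with a high level. All 49 together took between 1.005% and 1.45% of the summed FPKM of a library.

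**Figure D1:**
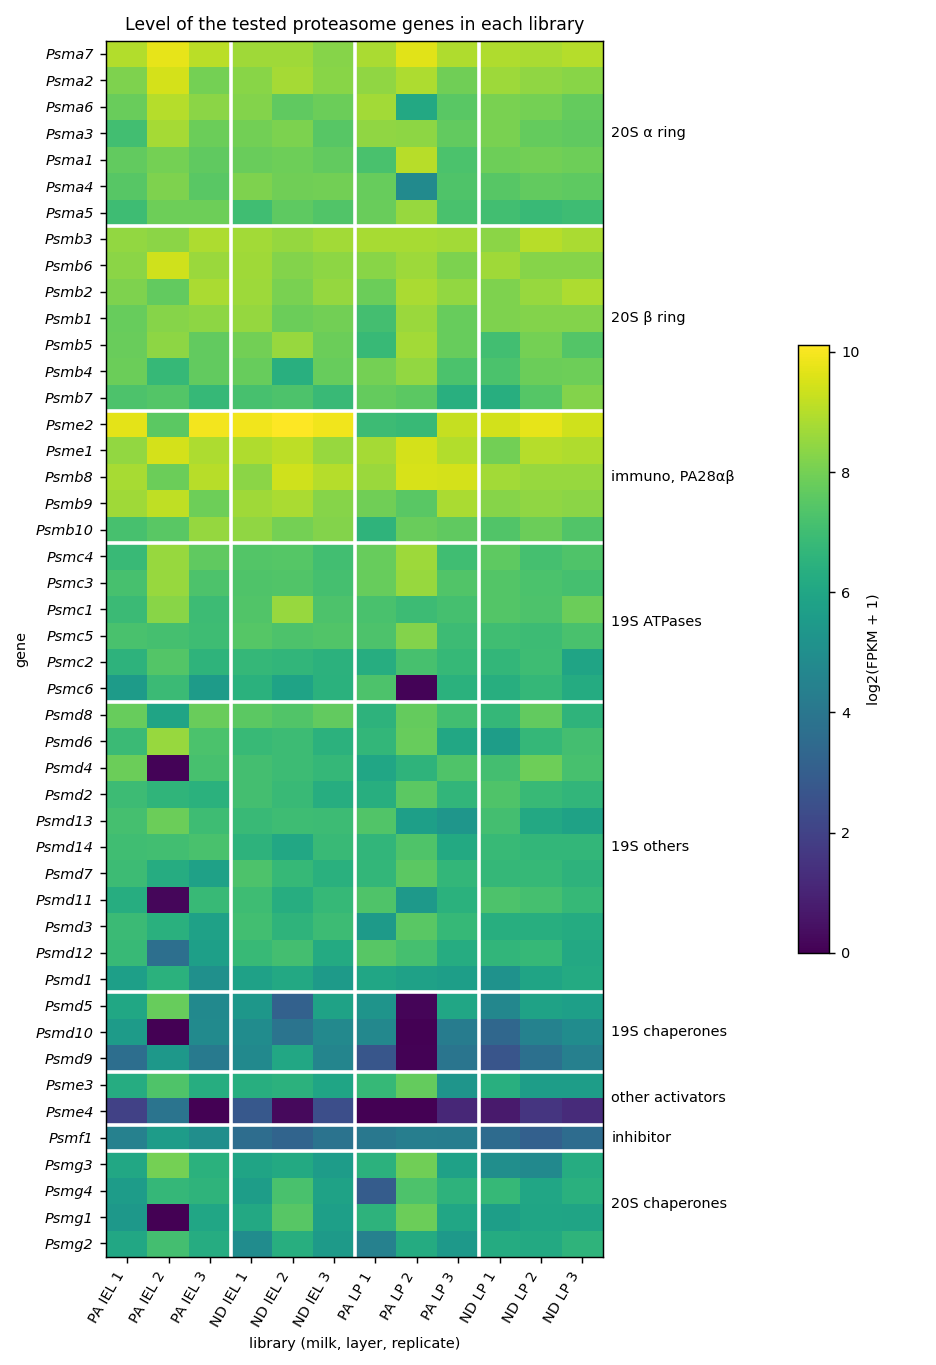
Level of each tested proteasome gene, Psmc3ip left out, as log2(FPKM + 1) (color) in each of the 12 libraries, with genes grouped by role and ordered by mean within a role. Most rows are even, and the dark cells fall mainly in PA milk IEL replicate 2 and PA milk LP replicate 2.

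Psmb8, the inducible counterpart of Psmb5, was at 440, 231 and 523 FPKM in PA milk IEL, 329, 665 and 506 in ND IEL, 389, 720 and 700 in PA milk LP, and 421, 375 and 376 in ND LP. Psmb5 itself was at 226, 336 and 203 in PA milk IEL, 251, 372 and 231 in ND IEL, 111, 414 and 219 in PA milk LP, and 131, 257 and 168 in ND LP. For either gene the PA milk and ND groups overlapped in both layers.

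Psmb9, the counterpart of Psmb6, was at 414, 565 and 233 FPKM in PA milk IEL, 407, 461 and 312 in ND IEL, 241, 182 and 460 in PA milk LP, and 313, 343 and 329 in ND LP. Psmb6 was at 325, 668 and 383 in PA milk IEL, 405, 302 and 334 in ND IEL, 318, 397 and 281 in PA milk LP, and 407, 307 and 306 in ND LP. The groups of PA milk and ND overlapped for both genes, and PA milk LP spread on either side of the narrow ND LP group for Psmb9.

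Psmb10, the counterpart of Psmb7, was at 145, 183 and 365 FPKM in PA milk IEL, 351, 259 and 303 in ND IEL, 93.9, 226 and 201 in PA milk LP, and 164, 228 and 163 in ND LP. Psmb7 was at 155, 170 and 109 in PA milk IEL, 144, 155 and 116 in ND IEL, 214, 191 and 82.9 in PA milk LP, and 79.8, 175 and 303 in ND LP. Psmb10 was higher in every ND IEL library than in any ND LP library (so were 9.95% of all tested genes), and the diets overlapped in both layers. Psmb8, Psmb9 and Psmb10 together made up 45.5% to 70.0% of the FPKM summed over these catalytic genes and their counterparts.

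Psme1, which encodes PA28 alpha, was at 355, 715 and 472 FPKM in PA milk IEL, 477, 555 and 375 in ND IEL, 434, 716 and 491 in PA milk LP, and 250.0, 508 and 482 in ND LP. Psme2, which encodes PA28 beta, the other subunit of the same ring, was at 833, 190 and 980 in PA milk IEL, 967, 1112 and 961 in ND IEL, 122.7, 112 and 597 in PA milk LP, and 685, 862 and 671 in ND LP. Psme1 overlapped between the diets, whereas every PA milk LP library had less Psme2 than any ND LP library. Groups stood apart in this way in the LP for 6.6% of all tested genes. In the IEL, Psme2 was low in PA milk replicate 2, and the third replicate lay inside the ND range. The ratio of Psme2 to Psme1 was 0.282, 0.156 and 1.22 in PA milk LP, and 2.74, 1.70 and 1.39 in ND LP. In the IEL it was 2.35, 0.265 and 2.08 with PA milk, and 2.03, 2.005 and 2.56 with ND. It was below 1 in PA milk IEL replicate 2 and in PA milk LP replicates 1 and 2.

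On the log2(FPKM + 1) scale the limma estimate for Psme2 in the LP was -1.86 with PA milk (SE 0.628, unadjusted p = 0.00936, adjusted p = 0.979), lower in 3 of 3 PA milk libraries. Marker genes of most cell types were lower there as well: 0 of 5 B and plasma cell genes (median -4.45), 0 of 10 epithelial genes (median -2.00) and 1 of 12 ILC3 genes (median -1.72) were higher with PA milk in the LP, and 1 of 7 T cell genes (median -1.78), against 4 of 7 genes of macrophages, dendritic cells and neutrophils (median 0.28), and their part was not tested. Of 20 genes common to leukocytes, 5 were higher with PA milk in the LP (median -0.30), against 37.4% of all tested genes (median -0.36). Without the replicates numbered 2 of PA milk in both layers the estimate for Psme2 was -1.43 (limma unadjusted p = 0.0173, adjusted p = 0.612). In the IEL it was -0.91 (limma adjusted p = 0.947), and -0.16 without those replicates. The difference between the layers in the effect of PA milk was -0.95 (limma adjusted p = 1), and between -1.72 and -0.513 over the alternatives. Psme2 has an annotated coding copy, Psme2b, on chromosome 11, and reads that fit either gene could have been shared between them. In bulk samples, fewer cells of a type and less RNA per cell cannot be told apart.

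**Figure D2:**
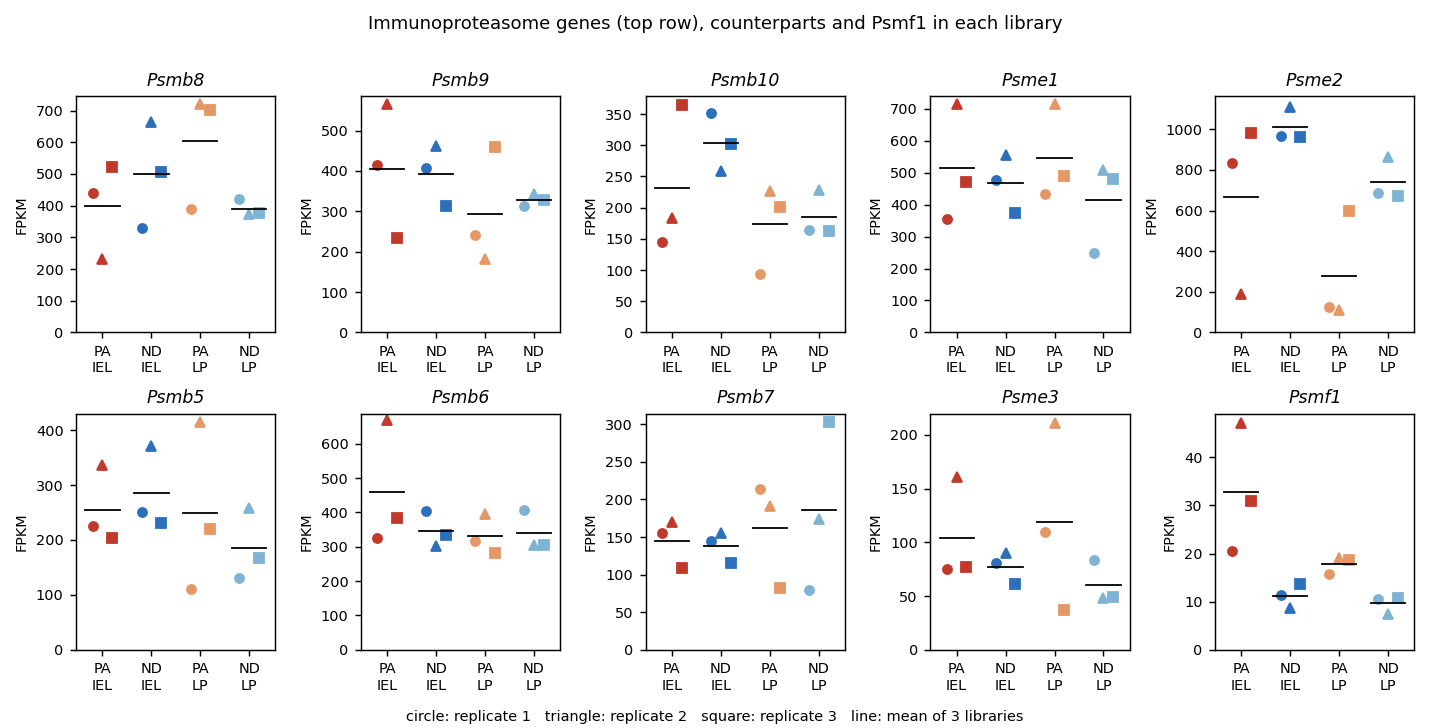
FPKM of the immunoproteasome and PA28 genes (top row) and of Psmb5, Psmb6, Psmb7, Psme3 and Psmf1 (bottom row) in each library, with the group mean as a line. Psme2 lies lower in all PA milk LP libraries than in ND LP (so did 6.6% of all tested genes). Psmf1 lies higher with PA milk in either layer (so did 2.97% of all tested genes in the IEL and 2.97% in the LP).

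Psme3, which encodes PA28 gamma, a nuclear activator, was at 74.9, 161 and 77.2 FPKM in PA milk IEL, 80.5, 90.2 and 61.4 in ND IEL, 110, 211 and 37.5 in PA milk LP, and 83.6, 48.5 and 49.1 in ND LP. Psme4, which encodes the activator PA200, was at 2.92, 13.7 and 0.0127 in PA milk IEL, 5.96, 0.188 and 4.39 in ND IEL, 0.0250, 0 and 1.16 in PA milk LP, and 0.671, 1.94 and 1.34 in ND LP. Psme3 was highest in the PA milk replicates numbered 2, Psme4 was the lowest tested proteasome gene, and both overlapped between the diets.

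Psmf1 encodes PI31, which inhibits the 20S core in vitro. It was at 20.6, 47.1 and 31.0 FPKM in PA milk IEL, 11.4, 8.65 and 13.6 in ND IEL, 15.8, 19.1 and 18.6 in PA milk LP, and 10.6, 7.52 and 10.8 in ND LP. Every PA milk library was above every ND library of its layer. That was so for 2.97% of all tested genes in the IEL and for 2.97% in the LP. The share for which it was so in both layers was not counted. The limma estimate for Psmf1 was 1.41 in the IEL (SE 0.931, adjusted p = 0.947) and 0.83 in the LP (SE 0.931, adjusted p = 0.979), so neither passed the test. Without the PA milk replicates numbered 2 the estimates were 1.12 and 0.78. With upper-quartile scaling the estimates were 0.88 in the IEL and 0.44 in the LP. The groups then still did not overlap in the IEL but did in the LP.

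The alpha ring had 7 tested members, with Psma7 the most abundant and Psma5 the least. Psma7 was at 495, 868 and 540 FPKM in PA milk IEL, 412, 403 and 311 in ND IEL, 461, 819 and 476 in PA milk LP, and 484, 455 and 508 in ND LP. Psma5 was at 126, 237 and 235 in PA milk IEL, 128, 196 and 166 in ND IEL, 223, 372 and 149 in PA milk LP, and 133, 114 and 126 in ND LP. Psma7 did not overlap between the diets in the IEL, nor Psma5 in the LP, with PA milk higher in each. The same held for 2.97% of all tested genes in the IEL and 2.97% in the LP. Psma7 overlapped with upper-quartile scaling and with scaling on genes common to leukocytes, and Psma5 with the latter. Psma8, a subunit of the testis, was not tested: ND LP replicate 2 held 11.69 FPKM and ND LP replicate 3 held 0.0648, and the other 10 libraries listed it at 0. Values of Psma1, Psma2, Psma3, Psma4 and Psma6 lay between 27.6 (Psma4 in PA milk LP replicate 2) and 703 (Psma2 in PA milk IEL replicate 2).

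Among the constitutive beta subunits, Psmb3 had the highest mean and Psmb7 the lowest. Psmb3 was at 360, 324 and 468 FPKM in PA milk IEL, 421, 364 and 421 in ND IEL, 438, 449 and 426 in PA milk LP, and 332, 517 and 451 in ND LP, with the diets overlapping in both layers. Psmb1, Psmb2 and Psmb4 lay between 83.2 (Psmb4) and 463 (Psmb2). Psmb11, the catalytic subunit of the thymus, was at most 1.24 FPKM in any library and was not tested.

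Of the 19S ATPases, which unfold substrates, Psmc4 had the highest mean and Psmc6 the lowest. Psmc4 was at 114, 376 and 202 FPKM in PA milk IEL, 169, 176 and 131 in ND IEL, 215, 400.3 and 130 in PA milk LP, and 193, 139 and 162 in ND LP. Psmc6 was at 46.1, 118 and 46.6 in PA milk IEL, 87.4, 58.2 and 87.3 in ND IEL, 158, 0.0672 and 87.1 in PA milk LP, and 80.7, 105 and 74.7 in ND LP. Both overlapped between the diets, and the value of Psmc6 in PA milk LP replicate 2 stood for 1.0 read. Psmc1, Psmc2, Psmc3 and Psmc5 lay between 59.9 (Psmc2) and 380.3 (Psmc3). The subunits Psmd4, a ubiquitin receptor, and Psmd11 gave 1.0 and 3.0 reads in PA milk IEL replicate 2, against 2329.1 and 1162.4 in replicate 1 of that group.

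Of the other 11 members of the 19S cap, Psmd8 had the highest mean and Psmd1, a scaffold, the lowest. Psmd8 was at 217, 58.9 and 222 FPKM in PA milk IEL, 189, 167 and 203 in ND IEL, 91.6, 212 and 131 in PA milk LP, and 107, 203 and 93.6 in ND LP. Psmd1 was at 50.7, 88.2 and 32.4 in PA milk IEL, 53.9, 68.3 and 45.1 in ND IEL, 61.8, 53.9 and 50.3 in PA milk LP, and 34.8, 59.6 and 71.7 in ND LP. Their diet groups overlapped. The other 9 lay between 0.0697 (Psmd4 in PA milk IEL replicate 2) and 375 (Psmd6 in the same library).

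Among the chaperones that assemble the cap, Psmd5 had the highest mean and Psmd9 the lowest. Psmd5 was at 64.7, 214 and 26.6 FPKM in PA milk IEL, 39.6, 7.74 and 55.6 in ND IEL, 37.1, 0.0994 and 63.0 in PA milk LP, and 25.0, 55.8 and 51.4 in ND LP. Psmd9 was at 11.8, 41.1 and 16.3 in PA milk IEL, 27.3, 66.6 and 23.5 in ND IEL, 5.49, 0.0383 and 14.4 in PA milk LP, and 5.29, 12.5 and 20.1 in ND LP. Psmd10 was listed at 0 in both PA milk replicates numbered 2, and these chaperones were the role with the widest spread (median within-group SD 1.93 on the log2 scale).

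Of the chaperones of the 20S core, Psmg3 had the highest mean, at 65.5, 259 and 87.4 FPKM in PA milk IEL, 59.9, 69.3 and 47.6 in ND IEL, 90.2, 242 and 53.8 in PA milk LP, and 31.3, 27.3 and 76.6 in ND LP. Psmg2 had the lowest, at 65.6, 135 and 76.2 in PA milk IEL, 29.2, 79.9 and 45.2 in ND IEL, 21.0, 74.7 and 42.8 in PA milk LP, and 73.3, 70.5 and 93.6 in ND LP. Psmg1 was at 41.2, 0 and 62.9 in PA milk IEL, 67.7, 178 and 52.0 in ND IEL, 92.9, 227 and 61.8 in PA milk LP, and 50.7, 61.3 and 59.8 in ND LP. The limma estimate for Psmg1 with PA milk in the IEL was -2.64 (unadjusted p = 0.0499, adjusted p = 0.947) and rested on replicate 2, listed at 0: without that library it was -0.74. Psmc3ip was at 39.5, 184 and 0 FPKM in PA milk IEL, 12.3, 32.7 and 4.93 in ND IEL, 0, 55.6 and 18.0 in PA milk LP, and 17.3, 2.38 and 2.02 in ND LP, with the diets overlapping in both layers. Psmg4 lay between 6.65 and 156.

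In the IEL, 24 of the 47 members were higher with PA milk and 23 lower, with a median log2 fold change of 0.03, against 39.5% higher and a median of -0.30 over all tested genes. No member was called by limma at an adjusted p under 0.05, and neither was any tested gene (0%). Psmg1 alone had an unadjusted p under 0.05, against 3.58% of all tested genes. The groups did not overlap for 4 members that were higher (Psma7, Psmd13, Psmd14 and Psmf1; 2.97% of all tested genes) and for 1 that was lower (Psmc5; 5.22%). With upper-quartile scaling these counts were 1 higher (Psmf1; 1.13% of all genes tested at that scaling) and 6 lower (8.07%). With scaling on genes common to leukocytes they were 1 higher (Psmf1; 2.91%) and 0 lower (4.19%). The immunoproteasome and PA28 genes had a median of -0.35 with 1 of 5 higher, and the other members a median of 0.05 with 23 of 42 higher. The median of the 5 was -0.59 without PA milk IEL replicate 3 and -0.12 without ND IEL replicate 2. Of the markers of cell types, 1 of 10 epithelial genes (median -1.54), 1 of 7 T cell genes (median -1.93), 2 of 5 B and plasma cell genes (median -0.35), 4 of 7 genes of macrophages, dendritic cells and neutrophils (median 0.28) and 8 of 12 ILC3 genes (median 0.66) were higher with PA milk in the IEL, and their part was not tested. Of 20 genes common to leukocytes, 10 were higher (median -0.01). With upper-quartile scaling, which moved the median of all tested genes from -0.30 to -0.58, 7 of the 47 and 0 of the 5 were higher. Scaling on leukocyte genes left 23 of the 47 and 1 of the 5 higher. Without the PA milk replicates numbered 2, 17 of the 47 and 0 of the 5 were higher, with a median of 0.00139 over all tested genes. By role, 3 of 11 non-ATPase members of the 19S cap were higher (median -0.39), and 5 of 7 alpha subunits (median 0.08).

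In the LP, 23 of the 47 were higher with PA milk and 24 lower, with a median of -0.03, against 37.4% higher and a median of -0.36 over all tested genes. Limma called no member and no tested gene (0%). Psme2 alone had an unadjusted p under 0.05, against 4.7% of all tested genes. Groups did not overlap for 3 members that were higher (Psma5, Psmf1 and Psmg1; 2.97% of all tested genes) and for 2 that were lower (Psmc1 and Psme2; 6.6%). Upper-quartile scaling gave 2 higher (Psma5 and Psmc3; 1.41% of all genes tested at that scaling) and 7 lower (8.6%). Scaling on genes common to leukocytes gave 2 higher (Psmb8 and Psmf1; 3.97%) and 0 lower (4.46%), and Psme2 overlapped in both. The immunoproteasome and PA28 genes had a median of -0.17 with 2 of 5 higher, and the others a median of 0.01 with 21 of 42 higher. Scaling on leukocyte genes turned these into 0.22 with 4 of 5 higher and 0.39. It put 33 of the 47 higher and the median of all tested genes at -0.11. Upper-quartile scaling turned the same medians into -0.60 with 2 of 5 higher and -0.42. It put 12 of the 47 higher and all tested genes at -0.61. Without the PA milk replicates numbered 2, 20 of the 47 and 3 of the 5 were higher, with all tested genes at -0.05. The median of the 5 was then 0.02. Leaving out 1 library put it between -0.32 (without PA milk LP replicate 3) and 0.22 (without PA milk LP replicate 1).

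**Figure D3:**
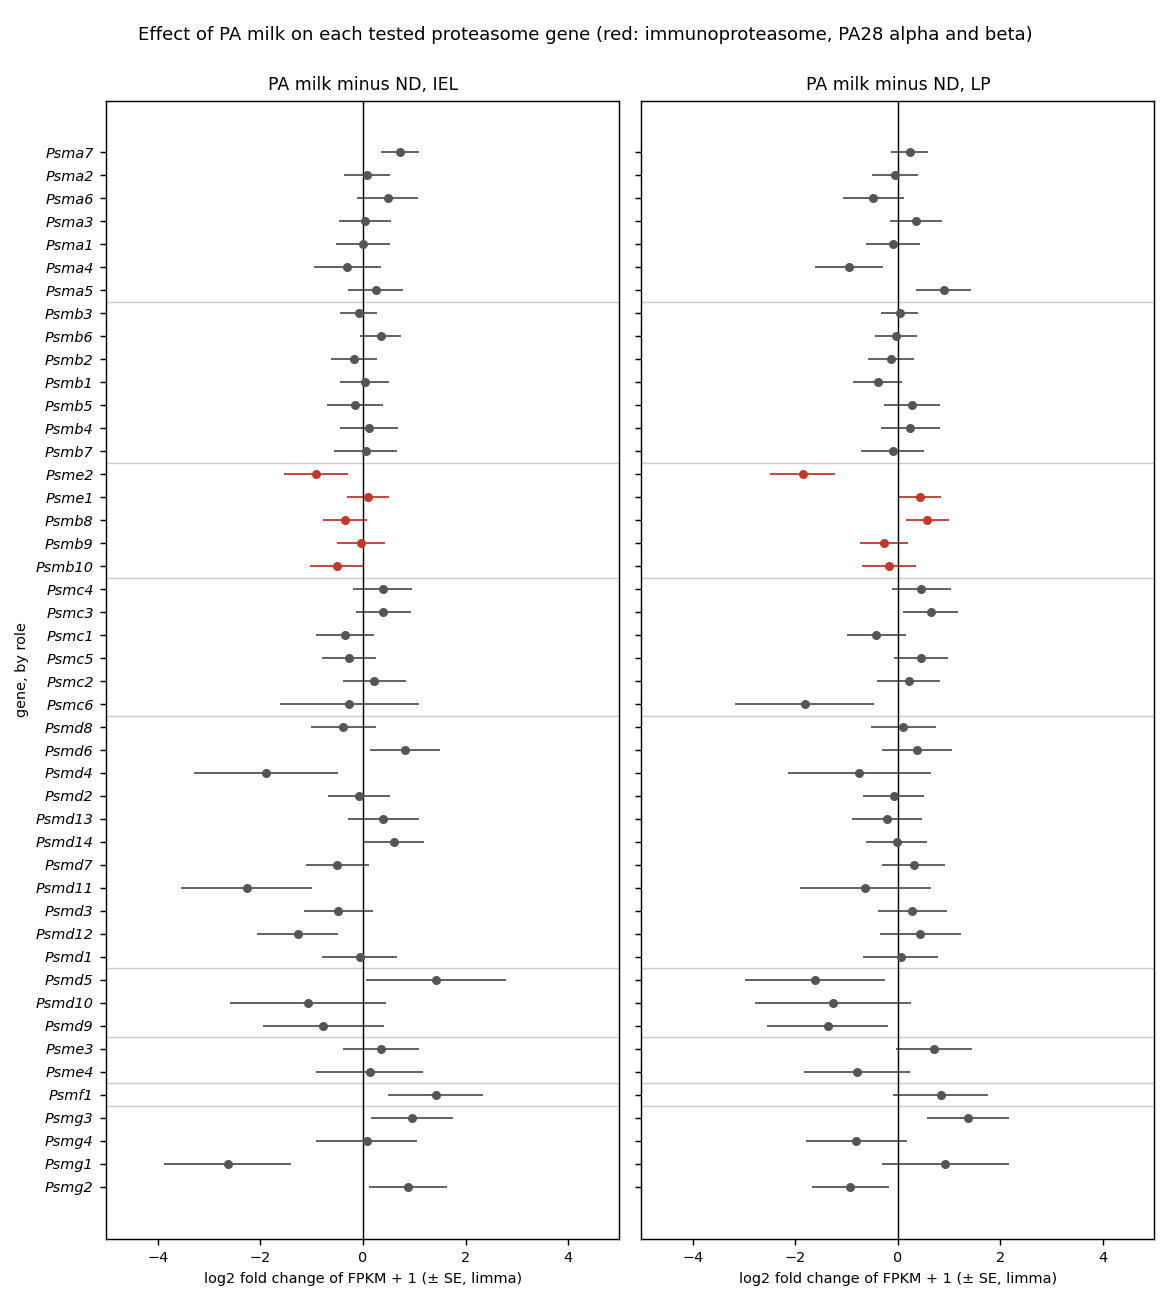
Log2 fold change of FPKM + 1 with PA milk against ND, with its standard error from limma, for each tested proteasome gene except Psmc3ip in the IEL (left) and the LP (right), in order of role. Over all roles, points lie on both sides of 0 in each panel, Psmf1 lies above 0 in both, and no gene passed the test. The 3 chaperones of the 19S cap, Psmd5, Psmd9 and Psmd10, lie below 0 in the LP. PA milk LP replicate 2 held 0.0994, 0.0383 and 0 FPKM of them, and the other PA milk LP libraries overlapped ND LP. With upper-quartile scaling most genes were below 0 in both layers. With scaling on leukocyte genes 33 of the 47 tested members were above 0 in the LP and 23 in the IEL.

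For the difference between the layers in the effect of PA milk, limma called no member and no tested gene (0%), and no member had an unadjusted p under 0.05, against 2.34% of all tested genes. The immunoproteasome and PA28 genes had a median difference of 0.33 and the other members -0.01. These became 0.72 and 0.38 with scaling on leukocyte genes, where all tested genes moved from -0.03 to 0.23. Leaving out 1 library put the median of the 5 between 0.02 (without ND LP replicate 1) and 0.50 (without PA milk LP replicate 1). For markers, 1 of 12 ILC3 genes (median -2.2) and 0 of 5 B and plasma cell genes (median -3.28) had a positive difference. So did 5 of 7 T cell genes (median 1) and 3 of 10 epithelial genes (median -0.35). Of 7 genes of macrophages, dendritic cells and neutrophils, 2 did (median -0.45). The part of these cells was not tested.

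Between the layers under ND, 30 of the 47 members were higher in the IEL, with a median of 0.14, against 46.4% higher and a median of -0.09 over all tested genes. All 5 immunoproteasome and PA28 genes were higher in the IEL (median 0.30), also under both other scalings, and 25 of 42 others (median 0.04, but -0.08 with upper-quartile scaling). Scaling on leukocyte genes, which moved the median of all tested genes to 0.31, put 45 of the 47 higher, and upper-quartile scaling 24. The 5 became 4 of 5 without ND LP replicate 1 or with sample quality weights. None was called by limma, against 4 of all tested genes (0.032%), and none had an unadjusted p under 0.05, against 6.63%. Groups did not overlap for 6 higher members (Psma4, Psmb10, Psmc5, Psmd3, Psmd9 and Psme2; 9.95% of all tested genes) and 2 lower ones (Psma1 and Psma7; 9.34%). Upper-quartile scaling gave 1 higher (Psmd9; 8.11% of all genes tested at that scaling) and 2 lower (Psma2 and Psmg2; 9.72%), and scaling on leukocyte genes 10 higher (14.5%) and 0 lower (4.6%). Of the markers of cell types under ND, 10 of 10 epithelial genes (median 2.52, 1 called by limma) were higher in the IEL. The counts were 0 of 5 B and plasma cell genes (median -3.30), 2 of 12 ILC3 genes (median -1.28), 3 of 7 T cell genes (median -0.21), 2 of 7 genes of macrophages, dendritic cells and neutrophils (median -0.58) and 3 of 20 genes common to leukocytes (median -0.44). Their part was not tested.

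With PA milk, 27 of the 47 were higher in the IEL, with a median of 0.11, against 48.9% higher and a median of -0.03 over all tested genes. Limma called none of the members and 18 of all tested genes (0.144%). Psme2 and Psmg1 had an unadjusted p under 0.05, against 10.6% of all tested genes. Psme2 was estimated 1.41 higher in the IEL (limma adjusted p = 0.451) and 1.73 higher without the replicates numbered 2, and Psmg1 at -2.99 (adjusted p = 0.428) and -0.56 without them. Groups did not overlap for Psmf1, higher in the IEL (4.06% of all tested genes), and for 0 lower members (4.51%). Psmf1 overlapped with either other scaling: upper-quartile scaling gave 1 higher (Psmg2; 2.88% of all genes tested at that scaling) and 2 lower (Psmc3 and Psmg1; 4.59%), and scaling on leukocyte genes 0 higher (4.83%) and 0 lower (3.24%). The immunoproteasome and PA28 median was 0.39 with 3 of 5 higher, but -0.10 with 2 of 5 higher without the replicates numbered 2. With upper-quartile scaling 20 of the 47 were higher, and with scaling on leukocyte genes 31 of the 47 and 4 of the 5. Of the markers of cell types with PA milk, 8 of 10 epithelial genes (median 3.12, 2 called by limma), 9 of 12 ILC3 genes (median 1.2), 2 of 7 T cell genes (median -1.59), 3 of 5 B and plasma cell genes (median 0.02), 4 of 7 genes of macrophages, dendritic cells and neutrophils (median 0.41) and 9 of 20 genes common to leukocytes (median -0.02) were higher in the IEL. Their part was not tested here either.

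A ratio inside a library does not move with the library's scale. The log2 ratio of Psmb8 to Psmb5 was 0.59 ± 1.001 in PA milk IEL and 0.78 ± 0.37 in ND IEL, and 1.42 ± 0.55 in PA milk LP and 1.13 ± 0.57 in ND LP (mean ± SD, n = 3). For Psmb10 to Psmb7 it was 0.58 ± 1.002 and 1.13 ± 0.35 in the IEL, and 0.11 ± 1.23 and 0.17 ± 0.97 in the LP, PA milk first. Without the replicate numbered 2 of PA milk, the difference of Psmb8 to Psmb5 in the IEL turned from -0.19 to 0.37. In the LP, that of Psmb9 to Psmb6 turned from -0.23 to 0.19 and that of Psme1 to Psme3 from -0.26 to 0.09. Other single libraries turned signs too. The difference of Psmb10 to Psmb7 between the diets in the LP was -0.06, and 0.58 without PA milk LP replicate 1, 0.36 without ND LP replicate 1 and 0.04 without ND LP replicate 2. Between the layers with PA milk it was 0.47, and -0.11 without PA milk IEL replicate 3 and -0.18 without PA milk LP replicate 1. The differences between the layers of Psmb9 to Psmb6 and of Psme1 to Psme3 turned their sign under either diet when some single library was left out. Over the 16 comparisons of these ratios, of Psmb9 to Psmb6 and of Psme1 to Psme3, no pair of groups stood clear of each other. The ratio of Psme2 to Psme1, whose groups stood clear in the LP as given above, was not among those tested. The exact two-sided permutation tests gave adjusted p = 1 throughout, and 3 libraries against 3 cannot go below p = 0.1.

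Other genes of the pathway were taken from lists. Among 19 tested genes of the proteasome and ubiquitin system, 10 were higher with PA milk in the IEL and 11 in the LP, with medians of 0.15 and 0.08, and 0 were called by limma or had an unadjusted p under 0.05. Over all tested genes, 39.5% and 37.4% were higher, with medians of -0.30 and -0.36. The diets did not overlap for Uchl5 in the IEL (higher with PA milk; 2.97% of all tested genes). Rad23b did not overlap in the IEL (lower; 5.22%) or in the LP (lower; 6.6%). Both genes were named after their values were seen. Pomp, the chaperone that matures the 20S core, was at 245, 998 and 375 FPKM in PA milk IEL, 306, 591 and 315 in ND IEL, 330.0, 728 and 329 in PA milk LP, and 329, 416 and 265 in ND LP, and the diets overlapped in both layers. Nfe2l1, the transcription factor that restores proteasome genes when the protease is inhibited, was at 20.9, 0.0884 and 22.7 in PA milk IEL, 14.4, 0.701 and 9.03 in ND IEL, 37.5, 0.0554 and 37.3 in PA milk LP, and 18.6, 30.9 and 22.3 in ND LP. It was below 1 FPKM in the replicates numbered 2 of PA milk and of ND IEL.

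Of 12 genes of MHC class I loading, 3 were higher with PA milk in the IEL (median -0.41) and 5 in the LP (median -0.07), and of 13 of interferon gamma signalling, 3 (median -0.40) and 2 (median -0.46), with 0 called by limma in either, and only Ifng in the IEL at an unadjusted p under 0.05. Over all tested genes, 39.5% were higher in the IEL (median -0.30) and 37.4% in the LP (median -0.36). These lists were not counted under the other scalings. Between the layers under ND, 3 of the 12 and 6 of the 13 were higher in the IEL, against 46.4% of all tested genes. With PA milk 4 and 6 were, against 48.9%. Ifng itself was at 0 in 9 libraries, and at 14.2 and 28.2 FPKM in ND IEL replicates 1 and 3 and 22.2 in PA milk LP replicate 3. Irf1, a transcription factor induced by interferon, was at 260, 106 and 84.8 in PA milk IEL, 318, 608 and 316 in ND IEL, 1174, 107 and 1576 in PA milk LP, and 761, 942 and 341 in ND LP, below ND in all PA milk IEL libraries. Groups stood apart in this way in the IEL for 5.22% of all tested genes. The limma estimate for Irf1 in the IEL had an adjusted p of 0.947. Tap1, Tap2, B2m and Nlrc5 overlapped between the diets in both layers. Of the 12 loading genes, the diets did not overlap for Tapbp (higher with PA milk; 2.97% of all tested genes), Calr and Pdia3 (both lower; 5.22%) in the IEL and for Canx (lower; 6.6%) in the LP, genes named after their values were seen. Tap1, the peptide transporter, was at 0.103 FPKM in PA milk LP replicate 2 against 140 and 213 in the other PA milk LP libraries.

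The 49 genes lie on 16 chromosomes in GENCODE annotation of GRCm38. Psmb9 (chr17:34181987-34187764, minus strand) and Psmb8 (chr17:34197721-34201454, plus strand) lie in the MHC with Tap1, and Psme1 (chr14:55578123-55581529, plus strand) and Psme2 (chr14:55587441-55591113, minus strand) are 5911 bases apart. Psmb10 lies at chr8:105935735-105938444 and Psmf1 at chr2:151715812-151744186, both on the minus strand. Exons of 14 members overlap those of another gene, among them Psmb9 with Tap1 and Psme1 with Emc9 on the opposite strand, so their reads could not be told apart where strand was not kept.

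Promoters from RefSeq (GRCm38.p6, windows of 300 bases around the start) were matched by symbol for 41 members. An interferon-response motif, GAAA and GAAA with any 2 bases between them on either strand, was found in 12.2% of these genes and in 3.99% of all genes with a promoter. It was in 1 of the 5 immunoproteasome and PA28 genes (Psme1) and in 4 of 36 other members (11.1%). TTCNNNGAA was in 7.32% against 9.55%, TGACNNNGC, of the antioxidant type, in 14.6% against 14.0%, and CCAAT in 36.6% against 41.1%, both strands searched. Of the 5, TTCNNNGAA was in 1 (Psmb8), TGACNNNGC in 0 and CCAAT in 1 (Psmb9). The promoters of Psme1 (chr14:55578244-55578543, plus strand) and Psme2 (chr14:55591052-55591351, minus strand) are shown because these partners differed in their values, and that of Psmb9 (chr17:34187281-34187580, minus strand) because it shares 275 bases with that of Tap1. Capitals mark a match to any of these motifs, and Psme2 held none.
Psme1: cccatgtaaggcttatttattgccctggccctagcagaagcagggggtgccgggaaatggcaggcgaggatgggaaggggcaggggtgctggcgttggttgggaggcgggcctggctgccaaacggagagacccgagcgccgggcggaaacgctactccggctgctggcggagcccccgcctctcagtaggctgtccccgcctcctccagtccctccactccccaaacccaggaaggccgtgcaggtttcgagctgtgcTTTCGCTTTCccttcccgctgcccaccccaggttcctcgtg
Psme2: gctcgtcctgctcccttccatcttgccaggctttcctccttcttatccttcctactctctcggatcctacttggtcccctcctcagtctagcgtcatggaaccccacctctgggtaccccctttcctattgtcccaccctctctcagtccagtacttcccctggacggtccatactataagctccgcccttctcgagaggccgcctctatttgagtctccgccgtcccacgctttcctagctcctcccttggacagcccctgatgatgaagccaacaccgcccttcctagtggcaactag
Psmb9: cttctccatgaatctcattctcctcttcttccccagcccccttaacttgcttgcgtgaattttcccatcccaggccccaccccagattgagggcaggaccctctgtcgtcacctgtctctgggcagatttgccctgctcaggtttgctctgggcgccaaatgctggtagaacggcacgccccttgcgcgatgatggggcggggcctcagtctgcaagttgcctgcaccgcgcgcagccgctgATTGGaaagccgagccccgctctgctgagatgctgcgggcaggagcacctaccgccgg
A match is a description of letters in this window and does not show that a factor binds there.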

How the data were processed

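RNA of sorted ILC3s was amplified as full-length cDNA from ultra low input and sequenced. Per the submitters' processing notes and the study's methods, the authors mapped reads to mm10 with TopHat2 2.1.1, Bowtie2 2.2.8.0 and SAMtools 0.1.18 and quantified genes with Cufflinks 2.2.1, and deposited FPKM values for each library. The second deposited table holds a signal, counts scaled per library and rounded by the authors, used here to estimate reads and as an alternative. No molecular identifiers were used, so reads are not independent molecules. Reads behind a value were estimated from the ratio of FPKM to scaled count of each gene and the step between low values in each library, where 87.4% to 93.6% of low values lay within 0.05 of a whole number of steps.

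Groups came from the labels. Genes with at least 1 FPKM in at least 3 of 12 libraries were fitted on log2(FPKM + 1) with limma 3.58.1 (R 4.3.3; eBayes with trend), 1 mean per group, over all 12502 tested genes, with Benjamini-Hochberg adjustment and a threshold of 0.05. Fold changes are on this scale, which understates changes of low genes. Ratios were tested with exact two-sided permutation tests over libraries (Python 3.11.15, numpy 2.4.6, pandas 2.3.3), adjusted over 16 tests. The fit was also run on simulated data, and no result of that run is used here. Genes were named by a rule: the immunoproteasome and PA28 genes and counterparts, the highest and lowest mean of each role, members with an unadjusted p under 0.05, symbols that name no proteasome gene, and landmarks of other lists, of which some are not reported here; members whose groups did not overlap, and those with single reads, were named after their values were seen. Members and lists were chosen with earlier results of these data known. Alternatives were a pseudocount of 0.1, filters, scalings, the scaled counts with at least 10 in at least 3 libraries, the 6 libraries compared, a replicate block, sample quality weights and libraries left out.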

Additional observations from a re-analysis of the deposited data

How the results depend on the processing

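No member of the proteasome genes was called by limma under any alternative in any of the 5 comparisons, and the printed fold changes of Psme2, Psmf1 and Psmg1 kept their sign wherever they were fitted. For Psme2 in the LP the estimate ranged from -2.64 to -1.43, with adjusted p from 0.148 to 1. The ratio tests could not pass the threshold at this number of libraries, so they say nothing of stability.

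Counts of called genes over all tested genes moved, and the cause was not tested. Between the layers under ND, 4 genes became 1 with a pseudocount of 0.1, 0 with no filter, 1 with at least 1 FPKM in all libraries, 1 with upper-quartile scaling, 0 with the scaled counts, 92 with only the 6 libraries, 793 with sample quality weights and 113 without the PA milk replicates numbered 2. With PA milk, 18 became 3 with no filter, 4 with at least 1 FPKM in all libraries, 8 with upper-quartile scaling, 10 with the scaled counts, 1 with only the 6 libraries, 134 with weights and 314 without the PA milk replicates numbered 2. For PA milk in the LP, 0 became 3 with weights. The scaled counts moved the median of all tested genes to -0.81 in the IEL and -0.83 in the LP. Leaving out 1 library gave 0 to 65 (ND layers; 65 without PA milk LP replicate 2), 1 to 289 (PA milk layers; 289 without PA milk LP replicate 2), 0 to 1 (PA milk in the IEL) and 0 to 8 (PA milk in the LP; 8 without PA milk LP replicate 3).

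Same-numbered libraries did not deviate together (correlations of deviations from group means -0.123 to 0.116), and the labels do not say whether they share a mouse. With a replicate block, calls were 3 for PA milk in the LP, 0 in the IEL and 0 for the interaction of diet and layer, and IEL against LP gave 4 under ND and 16 with PA milk; with a replicate block by diet and number, calls between the layers were 0 under ND and 5 with PA milk.

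The medians of the lists moved with scaling, with sample quality weights and with single libraries left out. With weights the immunoproteasome and PA28 median for PA milk in the IEL was -0.0705. Between the layers with PA milk it was 0.000786 without PA milk LP replicate 1 and 0.547 without PA milk LP replicate 3. With upper-quartile scaling the immunoproteasome and PA28 median for PA milk in the IEL was -0.907 and that of the others -0.506, and -0.422 for the others in the LP. With scaling on leukocyte genes the others were at 0.393 in the LP, 0.381 for the difference between the layers and 0.549 between the layers under ND, where the immunoproteasome and PA28 median was 0.812. Without the PA milk replicates numbered 2 that of the immunoproteasome and PA28 genes was -0.101 between the layers with PA milk. Depth limits values of few reads, which intervals were not given for.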
